A study of Mus musculus with 3 samples.

Results

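The genes described are the RAB GTPases, taken by rule as every gene with a protein-coding transcript in the deposited transcript annotation whose symbol is Rab followed by a number and, where present, a letter. The rule found 59 genes of 21901 with a protein-coding transcript. Their RNA was measured in the cytosolic fraction of primary bone marrow-derived macrophages of C57BL/6J mice, cells grown from marrow progenitors, by total RNA sequencing after depletion of ribosomal RNA. All 3 libraries, biological replicates 1, 2 and 3, came from cells stimulated for 40 min with 100 ng/ml Lipid A, the moiety of bacterial lipopolysaccharide that Toll-like receptor 4 recognises. No genetic change is named in the labels, and the 3 libraries share 1 donor record, so whether they came from separate animals is not known from the labels. They form 1 group: libraries of unstimulated cells or of other fractions were not analysed here, and no value below is an effect of Lipid A or of fractionation. Lower RNA per cell and fewer cells carrying an RNA cannot be told apart in such bulk samples.

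RAB GTPases are small proteins that mark the identity of membrane compartments and steer vesicle budding, transport, tethering and fusion. Each cycles between a GDP-bound state, held soluble by a GDP dissociation inhibitor, and a GTP-bound state on the membrane that recruits effectors such as motors and tethers. Exchange factors switch RABs on and GTPase-activating proteins switch them off. In macrophages they are best known for ordering the steps by which an ingested particle passes from an early phagosome, marked by RAB5, to a late one, marked by RAB7, and for the delivery of receptors and cytokines to the cell surface.

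Levels are given as TPM, a deposited abundance that is divided by a transcript's effective length and has the same total in every library, so levels of different genes may be compared per length. The gene tables summed to 37861150, 37136495 and 58889061 expected counts in replicates 1, 2 and 3. All 8 macrophage markers, among them Lyz2, Cd68 and Csf1r, were above 1 TPM and summed to 5434 to 9298 TPM per library. Sums were 0.010 to 0.10 TPM for 5 lymphocyte markers, with Cd3e and Ncr1 at 0, 0.010 to 0.030 for 3 erythroid markers, with Hbb-bs at 0, and 0.0900 to 0.240 for 4 stromal markers. The 5 dendritic cell markers summed to 1.33 to 1.58 TPM and the 4 mast cell or basophil markers to 0.440 to 0.680 TPM, with Fcer1a at 0. The 6 neutrophil markers summed to 34.0 to 44.7 TPM, mostly from S100a8 and S100a9, with Ngp at a mean of 2.80 TPM and Ly6g at 0. Of the 4 platelet or megakaryocyte markers, Pf4 held nearly all of a sum of 204 to 234 TPM. The means of the others were 1.04 TPM for Ppbp, 0.113 for Itga2b and 0.0433 for Gp9. The coding genes of the nuclear genome took 32.8%, 36.2% and 23.5% of all TPM, so any coding gene tends to a lower TPM in replicate 3. The nuclear RNAs Malat1, Neat1 and Xist summed to 323, 282 and 981 TPM, highest in the same replicate. Their part in the RAB levels was not tested.

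The promoter windows of 4 members are shown because these genes differ in level and in CpG number: Rab7 and Rab5c are the members with the highest levels, and Rab33b and Rab33a are a paralog pair that differed in both measures. Each window is from RefSeq on build GRCm38.p6, runs from 250 bases before to 50 bases after the annotated start, and is written 5′ to 3′ on the gene's strand with CpG dinucleotides in capitals. They lie at chr6:88045221-88045520, minus strand, for Rab7, chr11:100738166-100738465, minus strand, for Rab5c, chr3:51483716-51484015, plus strand, for Rab33b, and chrX:48519035-48519334, plus strand, for Rab33a.
Rab7: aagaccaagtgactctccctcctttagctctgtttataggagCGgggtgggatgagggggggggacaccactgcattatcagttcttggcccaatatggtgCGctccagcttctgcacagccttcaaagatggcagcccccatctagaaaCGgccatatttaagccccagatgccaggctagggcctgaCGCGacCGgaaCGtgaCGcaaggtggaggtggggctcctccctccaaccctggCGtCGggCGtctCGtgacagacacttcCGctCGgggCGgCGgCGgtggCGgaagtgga
Rab5c: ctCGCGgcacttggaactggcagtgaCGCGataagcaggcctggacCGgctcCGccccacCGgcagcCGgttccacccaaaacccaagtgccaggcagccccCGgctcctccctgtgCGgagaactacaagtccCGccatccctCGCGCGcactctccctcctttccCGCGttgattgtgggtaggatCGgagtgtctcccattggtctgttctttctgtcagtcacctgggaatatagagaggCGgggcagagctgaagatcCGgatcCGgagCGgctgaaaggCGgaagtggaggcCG
Rab33b: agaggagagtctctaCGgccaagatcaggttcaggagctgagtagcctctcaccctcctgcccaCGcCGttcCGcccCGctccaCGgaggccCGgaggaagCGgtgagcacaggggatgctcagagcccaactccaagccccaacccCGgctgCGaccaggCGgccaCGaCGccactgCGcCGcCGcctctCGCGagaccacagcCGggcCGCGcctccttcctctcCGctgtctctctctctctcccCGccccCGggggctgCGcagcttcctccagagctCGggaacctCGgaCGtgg
Rab33a: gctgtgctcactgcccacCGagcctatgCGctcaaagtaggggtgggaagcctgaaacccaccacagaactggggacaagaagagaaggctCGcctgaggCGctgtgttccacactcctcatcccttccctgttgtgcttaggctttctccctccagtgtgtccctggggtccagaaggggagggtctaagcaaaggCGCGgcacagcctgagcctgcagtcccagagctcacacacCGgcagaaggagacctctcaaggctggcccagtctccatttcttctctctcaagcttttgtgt

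Of the 59 RAB genes, 38 reached a mean of 1 TPM, which is 64.4%, beside 43.0% of all protein-coding genes of the nuclear genome. A mean of at least 10 TPM was reached by 27, for which no share over coding genes was computed. Another 10 lay between 0.1 and 1 TPM, and 11 were under 0.1 TPM. At least 0.1 TPM was thus reached by 81.4% of the family, beside 11445 of 22015 coding genes. The median of the 38 was 21.5 TPM, beside 8.59 TPM over all coding genes at or above 1 TPM. In the highest 10% of the 11445 detected coding genes, which began at 41.7 TPM, there were 11 RAB genes, or 18.6% of the family, beside 5.20% of all coding genes. Rab5b was just inside that limit at 41.8 TPM and Rab1b just outside it at 40.6. The RAB genes summed to 1288, 1539 and 935 TPM in replicates 1, 2 and 3, or 0.393%, 0.426% and 0.397% of the TPM of coding genes. Replicate 3 thus had the lowest sum in TPM but not the lowest share of coding TPM. The 3 highest members, Rab7, Rab5c and Rab8b, held 31% of the family's TPM and the 10 highest 62.4%. Rab7 exceeded Rab5c in every library by more than the spread between libraries, while Rab5c and Rab8b, Rab1a and Rab7b, and Rab7b and Rab14 did not differ beyond that spread. Over the whole order of the 38 genes, 13 of 37 neighbouring steps had the same sign in 3 of 3 libraries and a mean above its SD. The order was itself taken from the means of these 3 libraries, so this count is no test of it.

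**Figure D1:**
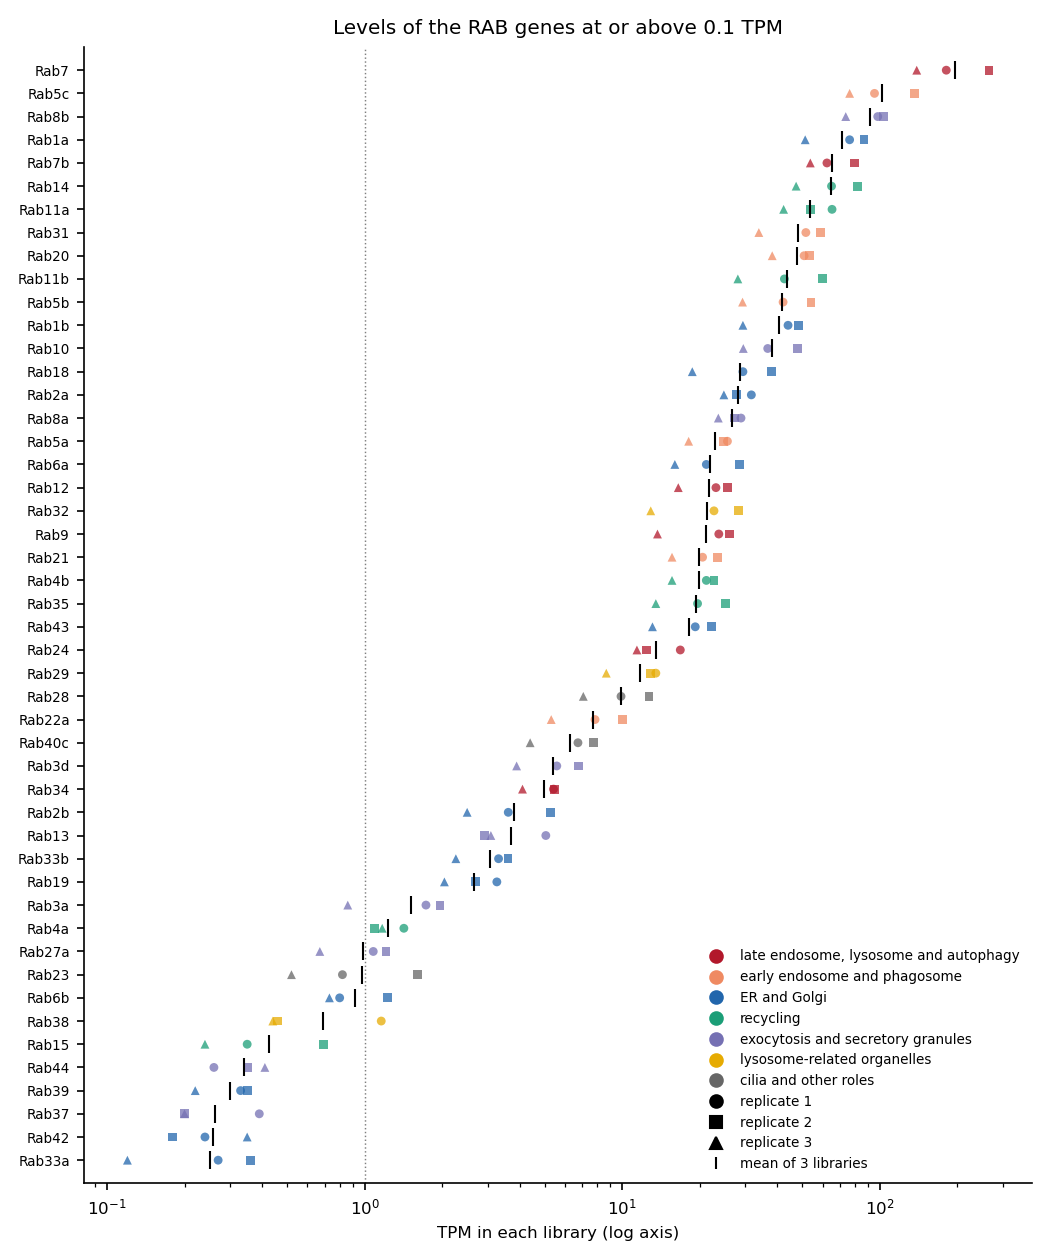
TPM of the 48 RAB genes at or above 0.1 TPM in each of the 3 libraries (log axis), ordered by their mean, which is shown as a vertical tick; colours give the role group, marker shapes the replicate, and the dotted line 1 TPM. Rab7 stood highest in all 3 libraries, and replicate 3 was the lowest in 36 of the 38 genes at or above 1 TPM.

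As grouped here, RABs of late endosomes, lysosomes and autophagy held the largest share of the family's TPM, 24.3%, 26.9% and 25.5% in the 3 libraries. In this group 6 of 7 genes were at or above 1 TPM. Each gene was placed in a single group, and the order of the groups depends on that choice. The late and early endosome groups had mean sums of 322 and 290 TPM. Rab14, at a mean of 64.8 TPM, was counted under recycling although it also acts at early endosomes and phagosomes. Rab7 (ENSMUSG00000079477.9, chromosome 6, 87999106 to 88045270, mm10), the GTPase that drives fusion of late endosomes, phagosomes and autophagosomes with lysosomes, stood at 181, 265 and 139 TPM in replicates 1, 2 and 3, a mean of 195 ± 64.1 (SD, n = 3). It was at percentile 98.9 of all coding genes of the nuclear genome, undetected ones included, and alone took 14.1% to 17.2% of RAB TPM. With TPM rescaled over coding genes alone, Rab7 stood at 625 ± 94.6, a smaller spread relative to its mean. Rab7b stood at 62.3, 79.5 and 53.7 TPM. It is known for carrying receptors from late endosomes to the trans-Golgi and for limiting Toll-like receptor 4 and 9 signals in macrophages. Rab12, which sorts recycling receptors to lysosomes, stood at 23.1, 25.7 and 16.5 TPM. Rab9, which returns mannose 6-phosphate receptors from late endosomes to the Golgi, stood at 23.7, 26.1 and 13.7 TPM, whereas its paralog Rab9b had a count of 0 in all 3 libraries. The autophagy-linked Rab24 stood at 13.5 ± 2.86 TPM and Rab34, linked to lysosome positioning and cilia, at 4.99 ± 0.774.

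In the grouping used here, RABs of early endosomes and phagosomes were the sole role group in which every member reached 1 TPM, 7 of 7. Of these, 4 were in the highest 10%. The groups were drawn with earlier results of these data known, so this count is not read as a trait of the compartment. Their share of RAB TPM was 22.8%, 23.4% and 23.2%. The 3 RAB5 genes, whose products organise fusion of early endosomes and new phagosomes, followed the same order in each library. Rab5c (ENSMUSG00000019173.11, chromosome 11, 100715009 to 100738215) stood at 95.3, 136 and 76.3 TPM, Rab5b at 42.1, 54.0 and 29.3, and Rab5a at 25.6, 24.8 and 18.1. The ranges of the 3 genes did not meet. Rab31, which acts between the trans-Golgi and endosomes, stood at 51.6, 58.7 and 33.9 TPM, and its relative Rab22a, of early endosomes, at 7.84, 10 and 5.30. These ranges were far apart. Rab20, which joins phagosomes as they mature, stood at 50.8, 53.4 and 38.2 TPM. Rab21, which traffics integrins through early endosomes, stood at 19.9 ± 3.99 TPM.

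RABs of the recycling pathway held 16.7%, 15.9% and 15.9% of RAB TPM, with 6 of 9 genes at or above 1 TPM. Rab14, which acts between the Golgi, early endosomes and phagosomes, stood at 64.9, 82.0 and 47.3 TPM. Rab11a, a marker of recycling endosomes, stood at 65.2, 53.6 and 42.3 TPM, and Rab11b at 42.6, 59.7 and 28.1. Replicate 2 was the highest library for Rab11b and not for Rab11a, and the ranges overlapped. Rab4b, of rapid recycling, stood at 21.2, 22.7 and 15.6 TPM, far above Rab4a at 1.42, 1.09 and 1.17. Rab35, which controls a recycling step at the plasma membrane, stood at 19.4 ± 5.79 TPM. Rab15 was at 0.427 ± 0.235 TPM, and the epithelial members Rab17 and Rab25 had counts of 0, 0 and 1 each.

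**Figure D2:**
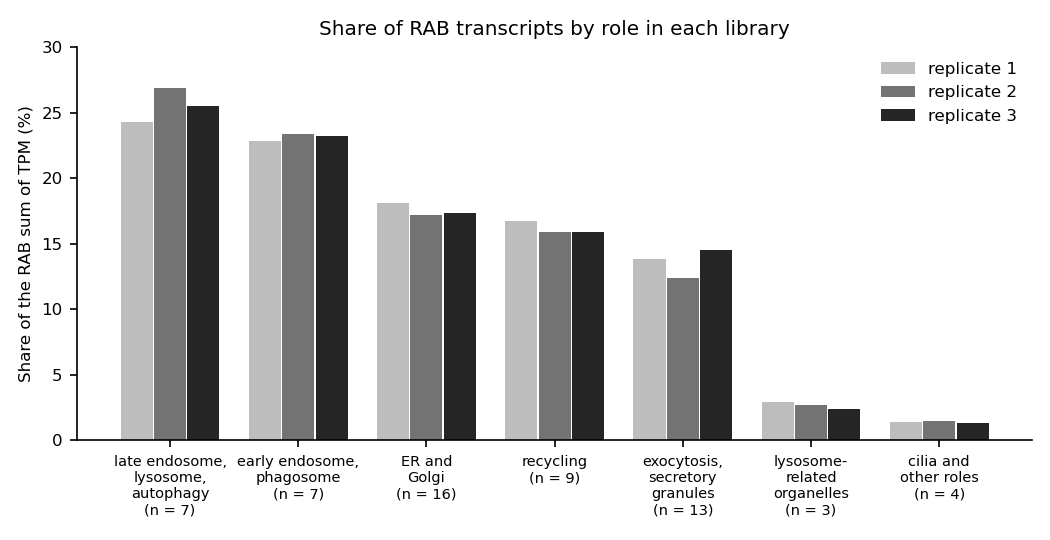
Share of the summed RAB TPM taken by each of 7 role groups (%), with a bar for each of the 3 libraries and the number of genes in each group below its name. The late endosome group took 24.3% to 26.9% and the early endosome group 22.8% to 23.4%. With each gene placed in a single group, the order of the 7 groups was the same in the 3 libraries. That order depends on the placing of genes such as Rab14.

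RABs of the endoplasmic reticulum and Golgi were the most numerous, with 9 of 16 at or above 1 TPM and 18.1%, 17.2% and 17.3% of RAB TPM. Rab1a (ENSMUSG00000020149.17, chromosome 11, 20201432 to 20226856), which drives transport from the endoplasmic reticulum to the Golgi, stood at 76.3, 86.8 and 51.3 TPM, and Rab1b at 44.0, 48.4 and 29.4. Rab18, of the endoplasmic reticulum and lipid droplets, stood at 29.4, 37.9 and 18.7 TPM. Rab1a was the higher of the RAB1 genes in each library. Rab2a, also of the early secretory pathway, stood at 31.7, 27.7 and 24.8 TPM, against 3.61, 5.25 and 2.50 for Rab2b. Rab6a, a Golgi RAB, stood at 21.2, 28.5 and 16 TPM, against 0.80, 1.23 and 0.730 for Rab6b, which is known mainly from neurons. Rab33b, which acts at the Golgi and in autophagosome formation, stood at 3.31, 3.6 and 2.26 TPM, against 0.270, 0.360 and 0.120 for Rab33a. In each of these 3 pairs the ranges did not meet. Rab43 stood at 18.2 ± 4.68 TPM and Rab19 at 2.66 ± 0.610, while Rab39 (0.300 ± 0.0700) and Rab42 (0.257 ± 0.0862) lay between 0.1 and 1 TPM.

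RABs of exocytosis and secretory granules held 13.8%, 12.4% and 14.5% of RAB TPM, with 6 of 13 at or above 1 TPM. Most of that sum came from the related genes Rab8b, Rab10 and Rab8a, which act in delivery to the plasma membrane. Rab8b (ENSMUSG00000036943.9, chromosome 9, 66843664 to 66919687) stood at 98.1, 103 and 73.7 TPM, Rab10 at 36.7, 47.9 and 29.5, and Rab8a at 28.9, 27.2 and 23.6. Rab8b was the highest of the 3 in each library. The RAB3 genes, which serve regulated secretion, were low: Rab3d stood at 5.57, 6.75 and 3.89 TPM, Rab3a at 1.73, 1.96 and 0.860, Rab3b at 0.0133 ± 0.0115, and Rab3c had a count of 0 in all 3 libraries. Rab13 stood at 3.69 ± 1.18 TPM. Rab27a, which docks secretory lysosomes and granules, was just under 1 TPM at 0.987 ± 0.282, and Rab27b was at 0.0433 ± 0.0306. Rab44, a large RAB described in mast cells and osteoclasts, was at 0.340 ± 0.0755 TPM and Rab37 at 0.263 ± 0.110.

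Among the RABs of lysosome-related organelles, Rab32 stood at 22.7, 28.3 and 12.9 TPM, Rab29 at 13.5, 12.9 and 8.67, and Rab38 at 1.16, 0.460 and 0.440. Rab32 and Rab38 deliver enzymes to melanosomes and related organelles, and Rab32 acts in macrophages against intracellular bacteria, while Rab29 is an activator of the kinase LRRK2. Rab38 was well below its relatives in each library. Of the group of cilia and other roles, Rab28 stood at 9.89, 12.7 and 7.06 TPM, Rab40c at 6.73, 7.73 and 4.39, and Rab23, an inhibitor of Hedgehog signalling, at 0.820, 1.60 and 0.520. Rab40c encodes an adaptor of a ubiquitin ligase, and its paralog Rab40b had counts of 1, 0 and 1.

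The 11 members under 0.1 TPM were Rab27b, Rab36, Rab26, Rab3b, Rab30, Rab40b, Rab17, Rab25, Rab39b, Rab3c and Rab9b. Most are known from neurons, epithelia or secretory cells. Rab27b had 4, 6 and 25 counts and Rab36 4, 7 and 11, so these were detected at a trace, whereas Rab39b, Rab3c and Rab9b had a count of 0 in all 3. A count of 0 allowed, with 3 counts per library as the limit and for counting error only, up to 0.0146, 0.0155 and 0.00720 TPM of Rab9b in replicates 1, 2 and 3. The second transcript tables, quantified by the authors from the reads directly, listed Rab9b at a mean of 0.0189 TPM and Rab9 at 9.16 TPM, so that limit holds for the gene tables alone and no fold is given.

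RAB genes were compared in 21 pairs, 20 of related genes and the pair of Rab7 and Rab5c, as the difference of log2(TPM + 1) within each library, a scale that understates the difference where a gene is low. A pair was called ordered when the sign was the same in 3 of 3 libraries and the mean exceeded its SD. With 3 libraries an exact sign-flip test cannot go below p = 0.25, so no p is given. By this rule 19 of the 20 related pairs were ordered, including 12 of the 13 in which both genes reached 1 TPM. Rab7 over Rab5c, already given above, was ordered too. The share of other coding gene pairs that meet this rule was not computed, so the count is not read as a trait of RAB genes. Rab5c exceeded Rab5b by 1.27 ± 0.10 and Rab5a by 2.09 ± 0.28, and Rab5a was below Rab5b with a difference of -0.82 ± 0.24. Rab8a was below Rab8b with a difference of -1.74 ± 0.14, and Rab22a below Rab31 with -2.49 ± 0.07. Rab1a exceeded Rab1b by 0.80 ± 0.03, the pair with the least spread, and Rab7 exceeded Rab7b by 1.53 ± 0.18. The difference of Rab1a and Rab1b was 1.34 with counts scaled to library size without regard to length. It was 0.99 in the second transcript tables, so the small SD does not cover the choice of measure. In the RAB1, RAB2, RAB4, RAB5, RAB6, RAB7 and RAB8 families, a single gene was thus the higher in every library.

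The widest differences were those in which the lower gene was under 1 TPM or close to it. Rab9 exceeded Rab9b by 4.42 ± 0.48, Rab32 exceeded Rab38 by 3.68 ± 0.56, Rab6a exceeded Rab6b by 3.55 ± 0.22 and Rab4b exceeded Rab4a by 3.21 ± 0.28. The differences were 2.83 ± 0.37 for Rab40c over Rab40b, 2.64 ± 0.38 for Rab2a over Rab2b, 1.69 ± 0.13 for Rab33b over Rab33a, 1.35 ± 0.07 for Rab3d over Rab3a, 0.77 ± 0.28 for Rab32 over Rab29 and 0.48 ± 0.27 for Rab10 over Rab8a. Rab11a and Rab11b were the exception: their difference was 0.60, -0.15 and 0.57 in replicates 1, 2 and 3, a mean of 0.34 ± 0.43. It was -0.69 when counts were scaled to library size without regard to length, and 0.70 in the second transcript tables. As a measure of how far reads could be shared within pairs, the aligned coding bases of their main coding transcripts were 57.3% to 79.5% identical, and 19 of 21 pairs shared no stretch of 31 bases, the rest at most 0.305% of such stretches. The annotated coding part of the main Rab11a transcript is incomplete, so its identity to Rab11b refers to a part of the gene.

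**Figure D3:**
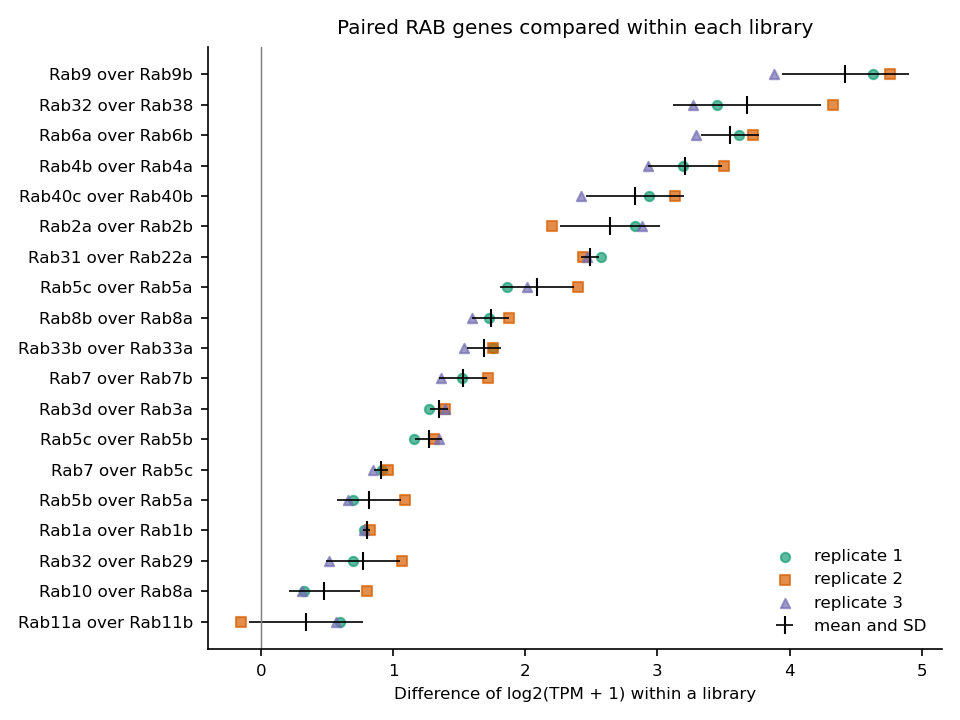
Difference of log2(TPM + 1) between the genes of 19 RAB pairs with at least 1 gene at 1 TPM, written with the higher gene first; symbols are the 3 libraries, and ticks with bars the mean and SD. Values lie right of 0 in all 3 libraries for every pair shown except Rab11a over Rab11b, where replicate 2 is at -0.15.

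Spread between the libraries beyond that of genes of like abundance was tested with edgeR on the expected counts of 12250 genes. Of these, 209 had an adjusted p under 0.05 (Benjamini-Hochberg), or 1.71%. A gene not called may still vary between the libraries, as others of like abundance do. Of the 46 RAB genes that passed the filter on low counts, 0 were called, and 1 had an unadjusted p under 0.05 in edgeR, beside 753 or 6.15% of all genes tested. That gene was Rab44, with 43, 20 and 110 counts, log2 CPM (CPM, counts relative to library size after TMM scaling) of 0.19, -0.91 and 0.97, and an edgeR adjusted p = 0.649. The median SD of log2 CPM over libraries was 0.15 for the RAB genes and 0.16 for all genes tested. Rab4b (SD 0.01), Rab8b (0.03) and Rab20 (0.03) were the steadiest. Among genes at or above 1 TPM the SD was highest in Rab13, at 0.45, with 245, 135 and 302 counts. Replicate 2 was the highest library on this scale for 23 of the 38 genes at or above 1 TPM, or 60.5%, beside 38.0% of coding genes. Rab7 belonged to these, at log2 CPM of 8.94, 9.39 and 8.99. In TPM, replicate 3 was lowest for 36 of the 38, or 94.7%, beside 93.0% of coding genes.

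Of the 38 genes at or above 1 TPM, 5 have a single annotated transcript, which fixes their share at 100%. The main transcript, that with the highest mean TPM, held over 90% of the gene's TPM in 17 of the other 33, beside 36.4% of coding genes at or above 1 TPM with several transcripts. Among them were Rab7-205 with 96.1% ± 0.717 and Rab5c-202 with 98.6% ± 0.660. It was the same transcript in both sets of transcript tables for 35 of 38, beside 91.9% of coding genes at or above 1 TPM. The exceptions were Rab7b, Rab8a and Rab40c. Rab7b was divided between Rab7b-202 (4498 bases), with 49.1%, 48.8% and 53.9%, and the shorter Rab7b-201 (1672 bases), with 47.5%, 46.0% and 42.3%. Rab40c-209 held 74.6%, 0% and 35.6% of the gene's TPM, and Rab40c-201, of nearly the same length, 0%, 55.4% and 25.1%. Shares of these 2 transcripts moved in opposite directions between libraries while the gene as a whole stayed between 4.39 and 7.73 TPM. Doubt in assigning reads between these 2 transcripts was not examined, and no cause of the differences was tested. Rab40c-205, annotated as a processed transcript and not as coding, held 19.6%, 37.3% and 22.4%. It was the main transcript of Rab40c in the second transcript tables.

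Retained-intron transcripts held over 5% of TPM in 2 of the 38 genes, Rab8a and Rab11a, beside 15.8% of coding genes at or above 1 TPM. In Rab8a the coding transcript Rab8a-201 (4550 bases) had 13.4, 17.7 and 9.54 TPM, and the retained-intron transcript Rab8a-202 (542 bases) 15.5, 8.73 and 14.1. The shorter transcript thus had 53.7%, 32.1% and 59.6% of the gene's TPM. It had only 10.3% of the gene's estimated counts in the second transcript tables, 388, 379 and 704 against 3355, 4511 and 4739 for the coding transcript, since TPM divides by length. The coding transcript alone had a mean of 13.6 ± 4.10 TPM. In Rab11a the retained-intron transcript Rab11a-209 held 14.3%, 4.22% and 1.14%, and 9 annotated transcripts divided the gene, led by Rab11a-201 (595 bases) with 37.2% ± 5.69 and Rab11a-208 (2336 bases) with 30.9% ± 3.92. Transcripts annotated for nonsense-mediated decay, a pathway that removes messages with an early stop, held 4.95%, 34.9% and 0% of Rab35 and 18%, 9.73% and 7.50% of Rab11b. The second transcript tables gave higher shares, 23.7%, 46.2% and 18.5% for Rab35 and 23.3%, 12.5% and 15.4% for Rab11b, with replicate 2 again the highest for Rab35. Of the estimated counts in the second tables, these transcripts had a smaller part, a mean of 11.2% in Rab35 and 7.03% in Rab11b. Rab6a was divided between its coding transcripts Rab6a-201 (46.6% ± 4.29) and Rab6a-203 (43.1% ± 5.96). Rab18 was divided among 3 coding transcripts of 729, 1184 and 6515 bases, with 43.9% ± 2.20, 35.2% ± 4.16 and 20.7% ± 4.45. In estimated counts of the second tables the order was the reverse for Rab18, with 1988, 2053 and 2952 for the longest and 513, 571 and 724 for the shortest. Rab11a-208 likewise had more counts there than Rab11a-201, 1714, 1860 and 2764 against 782, 466 and 1117.

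**Figure D4:**
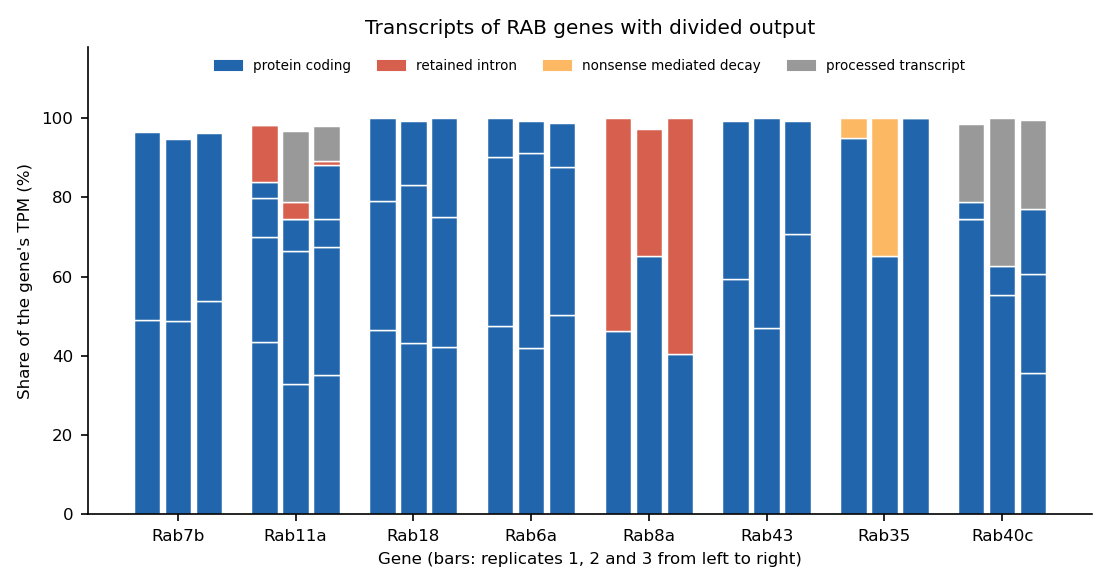
Share of each gene's TPM (%) by transcript in replicates 1, 2 and 3 for 8 RAB genes, with a segment for each transcript that held at least 5% on average in either set of tables and colours for its annotated type; bars short of 100% lack the remaining transcripts. Rab8a shows the retained-intron share of 32.1% to 59.6%, and Rab35 the nonsense-mediated decay share of 34.9% in replicate 2.

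Some RAB genes overlap other genes, and since the use of strand in counting is not stated, their reads may be divided with these neighbours. Of the 38 genes at or above 1 TPM, 12 overlapped another gene, for which no share over coding genes was computed. Rab4a, at 1.23 TPM, lies on the same strand as the gene model Gm20388, at 11.9 ± 5.98 TPM. Rab24, at 13.5 TPM, overlaps Prelid1 on the opposite strand, at 67.2 ± 22.5, Rab2b overlaps Tox4 at 14.7 ± 3.21, Rab3a overlaps Mpv17l2 at 8.17 ± 1.79, and Rab6a overlaps Mrpl48 at 10.9 ± 3.85. How far this affects these levels was not tested. Rab37, under 1 TPM, overlaps Cd300lf at 25.0 ± 6.25. The authors' posterior SD of the count, which measures doubt in assigning reads, was 0 for 24 of the 38 genes, Rab4a and Rab3a among them. It was above 1% for 2, Rab43 at up to 1.66% and Rab24 at up to 1.26%. Shares over coding genes were not computed for these counts either. The processed pseudogenes Rab7-ps1 and Rab11b-ps2 stood at 1.17 ± 0.240 and 1.07 ± 0.166 TPM, small beside Rab7 and Rab11b.

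Genes that load, activate and inactivate RABs, or act downstream of them, were taken as a list of 133, of which 114 were at or above 1 TPM, beside 43.0% of coding genes. In the second transcript tables the number was 101. All 8 genes for prenylation and GDP dissociation inhibition reached 1 TPM. They were led by Gdi2, which extracts GDP-bound RABs from membranes, at 215, 218 and 135 TPM, ahead of Rabac1, a membrane receptor for prenylated RABs, at 54.4, 40.8 and 32.7. Gdi2 was thus at a level like that of Rab7, and Rabac1 far lower in each library. Of 39 exchange factors 34 reached 1 TPM, with a list median of 6.95 TPM. The highest were Rab3il1, which activates RAB3 and RAB8 proteins, at 39.9, 49.7 and 26.7, Dennd4c, which activates RAB10, at 37.5, 40.7 and 28.2, and Trappc1, a core subunit of the TRAPP complexes, at 29.5, 43.4 and 22.1. Of 29 GTPase-activating proteins 27 reached 1 TPM, with a median of 9.68. Tbc1d13, which acts on RAB35, led at 34.8, 39.7 and 24.7 TPM, followed by Tbc1d4, which acts on RAB10, at 26.2, 32.1 and 17.4, and Tbc1d20, which acts on RAB1 and RAB18, at 25.6, 31.8 and 18.3.

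Effectors were the most divided list, with 45 of 57 at or above 1 TPM and 11 under 0.1 TPM. Over all coding genes, 43.0% reached 1 TPM and 11445 of 22015 reached 0.1 TPM, so genes under 0.1 TPM were no more frequent among effectors. Myo5a, an actin motor recruited by several RABs, stood at 245, 290 and 190 TPM, above Rab7 in each library. Rilpl2, which binds Myo5a and phosphorylated RAB8 and RAB10, stood at 59.6, 48.9 and 35.2 TPM, and Plekhm1, a RAB7 effector at lysosomes, at 30.5, 39.1 and 24.6. The 11 effectors under 0.1 TPM were Sytl1, Sytl2, Sytl3, Sytl4, Sytl5, Mlph, Exph5, Rph3al, Rab11fip4, Myo5b and Bicd1. The Sytl proteins, Mlph and Exph5 are known as effectors of RAB27 proteins. Another RAB27 effector, Unc13d, which primes granules for release, stood at 6.65, 7.66 and 4.84 TPM, above Rab27a at 1.08, 1.21 and 0.670 in each library. Of the 121 regulators tested for spread between libraries, 0 had an edgeR adjusted p under 0.05 and 1, Dennd2a, an unadjusted p under 0.05 (its edgeR adjusted p = 0.665).

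RefSeq promoter windows were matched for 48 of the 59 genes, by the window nearest the start of the main transcript. For members under 0.1 TPM the main transcript, and so the window, rests on few or no reads. The windows of the 34 genes at or above 1 TPM held a median of 24.5 CpG (range 9 to 43), and those of the 14 below it a median of 14 (5 to 42). Over all coding genes the medians were 22 (7598 genes at or above 1 TPM) and 5 (8923 below). The Rab7 and Rab5c windows printed above held 18 and 23 CpG, below the median of their set. The Rab33b window held 28 and that of its lower paralog Rab33a 7. CpG number did not follow level in all members: Rab6b with 42 and Rab15 with 38 were under 1 TPM, whereas Rab9 with 9 and Rab32 with 10 were above 20 TPM.

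Motifs were searched on both strands of the same windows. The GC box GGGCGG was in 73.5% of RAB windows at or above 1 TPM and 71.4% of those below, beside 67.8% and 32.2% over coding genes. TATAAA, the letters of the TATA box counted at any position, was in 2.94% and 21.4%, beside 6.49% and 18.3%. For the RAB windows these shares are 1 of 34, that of Rab7, and 3 of 14. Whether a match lay where a TATA box acts was not examined. TGACG, the half-site of the cyclic AMP response element, was in 58.8% and 28.6%, beside 34.8% and 15.8%, and in 20.8% of all 32851 promoter windows. The κB consensus was in 5.88% of RAB windows at or above 1 TPM and in 10.4% of such coding genes; the 2 RAB genes were Rab11a and Rab28. These matches describe letters in the windows and show no binding.

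**Figure D5:**
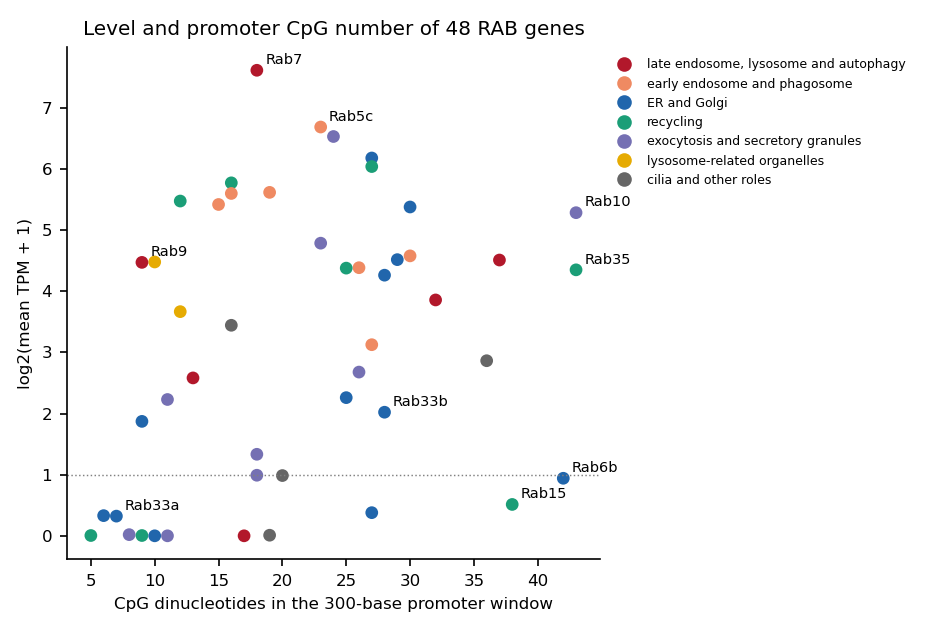
Mean level, as log2(mean TPM + 1), against the number of CpG dinucleotides in the 300-base promoter window for the 48 RAB genes with a RefSeq window; colours give the role group and the dotted line 1 TPM. Rab7 (18 CpG) lies highest, and Rab6b (42 CpG) and Rab15 (38 CpG) lie low despite many.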

How the data were processed

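The authors deposited, for each library, 1 table of genes and 2 of transcripts, on mm10 and GENCODE M21 per their notes. The expected counts and TPM of the gene table and of the first transcript table were derived by the authors from a transcriptome alignment, and the estimated counts and TPM of the second transcript table directly from reads, per the same notes. For tools, versions and strand use, nothing is given in the sources used here. Features without a gene took 0.314%, 0.0927% and 0.0533% of the counts and were left out.

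Levels are gene-table TPM, as mean ± SD of 3 libraries, with a pseudocount of 1 on the log2 scale. Expected counts were rounded and tested over all genes in edgeR 4.0.16 (R 4.3.3) with filterByExpr, TMM, an intercept-only fit with trended dispersion, a goodness-of-fit chi-square test and Benjamini-Hochberg adjustment at 0.05. The script was tested on simulated data. The p-values measure spread beyond the trend of genes of like abundance, and that trend was estimated from the same 3 libraries. With 1 donor record they refer to these libraries alone, and the spread may be technical. Values in every library are given for the 3 highest members of each role group, for pairs with a gene at 1 TPM or more, and for the 3 highest genes of each regulator list, except 1 regulator that is not reported here. Other genes named, with the transcripts and promoters shown, were picked after their values were seen. Members, role groups, pairs, motifs and regulator and marker lists were chosen with earlier results of these data known.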

Additional observations from a re-analysis of the deposited data

How the results depend on the processing

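Counts of RAB genes at or above 1 TPM (36 to 44, and 48 or 31 with a threshold of 0.1 or 5 TPM), in the highest 10% (9 to 12), ordered pairs (20 or 21 of 21) and genes with the same main transcript (35 to 37 of 38) stayed within 1.5 times the main count when TPM was rescaled over coding genes, taken from the second transcript tables or computed without a replicate, wherever that alternative applied. With pairs left out in which a gene was under 1 TPM, 13 of 14 were ordered. Genes called for spread between libraries numbered 116 when coding genes alone were tested. With 1 library left out they numbered 59 to 129, fewest without replicate 3. For RAB genes the number was 0 in every alternative run in edgeR, while 0 to 3 had an unadjusted p under 0.05. Relative log expression scaling, as DESeq2 uses, and no filter gave 210 and 211 genes. Of 19 pair differences, 16 moved by more than their SD without length normalization, 12 in the second tables, and 8 each with a pseudocount of 0.1 TPM or rescaled TPM. No ordered pair changed sign. Without length normalization Rab11a against Rab11b went to -0.69, Rab5c over Rab5b to 0.49, Rab10 over Rab8a to 1.00, Rab3d over Rab3a to 3.07 and Rab32 over Rab29 to 1.70. Rab10 over Rab8a was 0.15 in the second tables, and Rab40c over Rab40b 5.87 with the smaller pseudocount. The second tables differed from the gene tables by a median of -0.98 on the log2 scale over coding genes, and relative to that shift no RAB gene at or above 1 TPM was off by more than 1.5-fold. No paired analysis was possible because the libraries form 1 group. Groups of 3 are too small for the outlier test used on larger groups. Depth limits the members under 0.1 TPM, most of which had fewer than 10 counts per library.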
